A study of Mus musculus with 6 samples.

Results

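Cytosines in intergenic DNA near genes were examined: sites annotated as intergenic whose nearest annotated transcription start lay less than 20 kb away, with sites in CpG islands and in repeats left out. They were chosen by annotation and distance alone, not by how methylation differed. Of the 6756 cytosines in the authors' deposited tables, 758 met the rule (11.2%), 720 of them hypermethylated and 38 hypomethylated in mice without Tet1. The last sites inside the limit were 19901, 19904 and 19970 bp from a start, with listed differences of 36.3, 42.1 and 38.6 percentage points (pp), and the first outside it, 20014, 20143 and 20183 bp away, had 49.0, 29.8 and 33.9 pp in the authors' deposited tables.

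The samples were LSK cells sorted from bone marrow, a population without lineage markers and with Sca-1 and Kit that contains the haematopoietic stem and progenitor cells. There were 3 Tet1 KO samples and 3 WT samples, from mice 6 months old of a strain given in the labels as CD57BL/6. The labels state neither how Tet1 was deleted, nor whether each sample was taken from a different mouse. The assay was enhanced reduced representation bisulfite sequencing (ERRBS). It covers mainly CpG-rich fragments of the genome. Each deposited value is 1 difference per cytosine, Tet1 KO minus WT in pp, over all samples. The direction was taken from the names and signs of the lists. No levels per sample, coverage or p-values were used. The depth of sequencing at a site is thus unknown, and no spread between replicates can be set beside it. Neither the loss of Tet1 nor the cell type could be checked in lists of methylation differences, and 0 listed sites had Tet1 as their nearest gene.

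Tet1 is a dioxygenase that oxidises 5-methylcytosine to 5-hydroxymethylcytosine and further forms, the first steps of active demethylation. Bisulfite sequencing reads 5-methylcytosine and 5-hydroxymethylcytosine alike as methylated. Intergenic DNA close to genes, outside CpG islands, holds island shores and many enhancers, and CpGs there vary more in methylation between cell types than those in islands, which are mostly unmethylated. A nearest gene is a label of position: it is the gene whose start is closest, and not a gene shown to be regulated by the site.

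MicroRNA genes were among the nearest genes with the most sites, so the mature RNAs they encode are shown. MicroRNAs are short RNAs that repress messenger RNAs through pairing of their seed. Of the 478 nearest genes, 8 were microRNA genes, with 24 sites between them, and all 8 had a mature sequence in the RefSeq table for GRCm38.p6. The share of microRNA genes among all 3344 nearest genes was not set beside the 8, so that number cannot be called high or low. For each gene 1 arm is given, 5′ to 3′, with the seed (bases 2 to 8) in capitals. The 6 microRNA genes other than Mir137 and Mir7-2 were chosen after their values were seen.
miR-137-3p: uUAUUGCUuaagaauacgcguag
miR-7a-5p: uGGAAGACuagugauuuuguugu
miR-129-5p (from Mir129-1 and Mir129-2): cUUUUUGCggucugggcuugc
miR-125b-5p (from Mir125b-2): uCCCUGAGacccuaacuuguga
miR-34a-5p: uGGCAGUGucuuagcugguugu
miR-1953: uGGGAAAGuucucaggcuucug
miR-3475-3p: uCUGGAGGcacaugguuugaa
Mir129-1 and Mir129-2 encode the same 5p RNA, and no other pair of the RNAs shown shared a seed.

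Most of the sites near genes were more methylated in Tet1 KO cells. Hypermethylated sites were 94.99% of the 758 (95% interval 93.2 to 96.4%, by the exact Clopper-Pearson method, for counting error alone), beside 92.8% of all 6756 listed sites. This interval counts every site as independent, which close neighbours are not, so it can be too narrow. The 720 hypermethylated sites had a median difference of 41.6 pp in the authors' deposited table (quartiles 33.3 and 51.0, range 25.1 to 88.2). Of them, 90 (12.5%) reached 60 pp, beside 12.3% of all hypermethylated listed sites. The 38 hypomethylated sites lay a median of 11228 bp from a start, against 7774 bp for the hypermethylated ones, and had a median of -37.2 pp in the authors' deposited table (range -81.1 to -26.0), and 1 of them showed a loss of 60 pp or more. Hypermethylated sites were found on all 20 chromosomes with a member, and outnumbered hypomethylated ones on each. The lowest shares were 72.7% on X (8 of 11 sites) and 77.8% on chromosome 18 (14 of 18). No hypomethylated site was listed on chromosomes 6, 9 and 19 (of 14, 46 and 18 sites). Shares of all listed sites on each chromosome were not set beside these small counts.

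**Figure D1:**
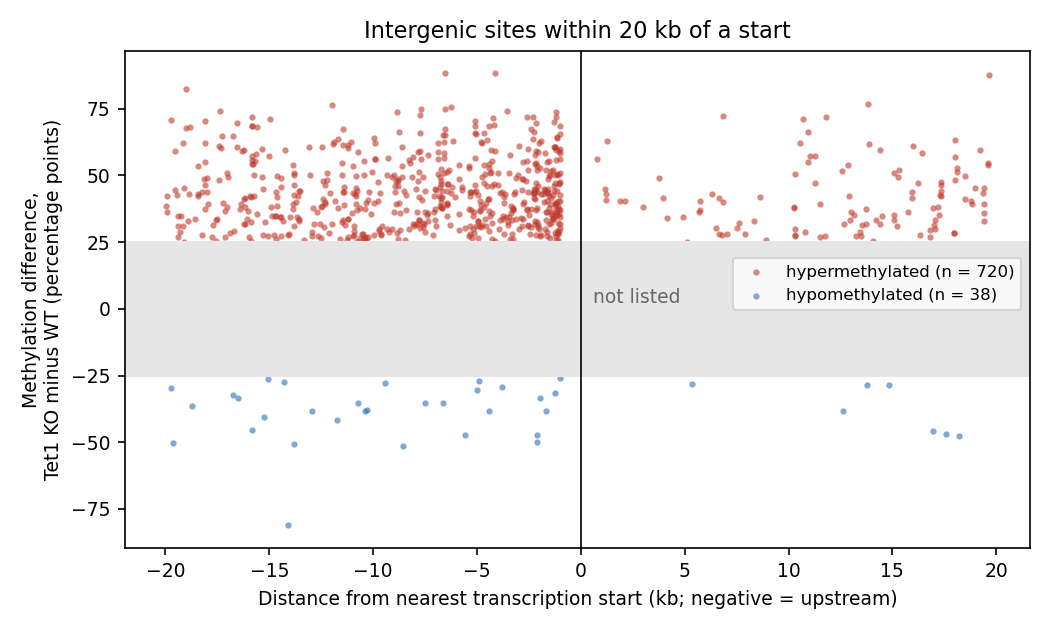
Methylation difference of each of the 758 sites (y axis, pp, Tet1 KO minus WT) against its distance from the nearest transcription start (x axis, kb, upstream negative). The grey band from -25 to 25 holds no sites because the deposited lists begin there, and 605 of the 720 hypermethylated and 31 of the 38 hypomethylated sites lie upstream.

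Sites lay mostly upstream of the start. The sign of the deposited distance follows the strand of the cytosine, and once multiplied by that strand it gives the side of the start in the gene's own direction: all 2303 intron and exon sites in the transcript of the nearest start came out downstream. By this measure 605 of 720 hypermethylated sites (84.03%, exact interval 81.1 to 86.6%) and 31 of 38 hypomethylated sites (81.6%, 65.7 to 92.3%) were upstream. Both intervals count every site as independent, which close neighbours are not, so they can be too narrow. A site downstream of a start is intergenic only beyond the end of that gene, so the rule itself leaves less room downstream. Among hypermethylated intergenic sites, 48.2% were upstream at 20 to 100 kb from a start and 55.9% at 100 kb or farther. Counted by nearest gene, the upstream shares were 84.2% within 20 kb, 57.4% at 20 to 100 kb and 53.6% at 100 kb or farther. The median hypermethylated difference was 42.1 pp upstream and 40.1 pp downstream in the authors' deposited table. The 758 sites lay 799 to 19970 bp from a start, with a median of 7851 bp, and 8 genes had sites on both sides.

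Many of the sites lay in short clusters. Neighbouring sites that changed in 1 direction and lay under 1000 bp from each other were merged into regions, which gave 473 hypermethylated and 38 hypomethylated regions. Of the 473, 133 (28.1%) held 2 or more sites, beside 31.8% of hypermethylated regions over all listed sites, and these 133 contained 380 of the 720 hypermethylated sites (52.8%). Every hypomethylated region near starts was a single site, against 52 sites in 50 regions at 20 to 100 kb and 37 in 35 at 100 kb or farther. Over all lists, 486 hypomethylated sites formed 451 regions. The median cluster spanned 42 bp, 80 of the 133 spanned no more than the 50 bp of a sequencing read, and 96 lay on 1 strand. Close sites on the same strand can share reads, so the number of sites in a cluster is not a number of independent measurements. In 6 CpGs both strands were listed, and all 6 pairs had the same direction, as had all 57 such pairs over all listed sites (median gap 8.29 pp). The strands differed by a median of 10.9 pp in the authors' deposited table (range 0.149 to 27.8), the widest being a CpG near Mir7-2 with 38.2 pp on the forward and 65.9 pp on the reverse strand.

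Mir137, the gene of a brain-enriched microRNA that acts in neuronal differentiation, had the most sites. Its 9 sites, on chromosome 3 between 118128921 and 118138024 (mm9), were all hypermethylated and formed a cluster on each side of the annotated start of the hairpin. The 6 upstream, 7697 to 7854 bp away, had 31.9, 58.8, 48.0, 51.3, 59.1 and 74.7 pp in the authors' deposited table. The 3 downstream, 1206 to 1249 bp away, had 43.0, 40.7 and 63.0 pp in the same table, within the range of the upstream cluster. Mir7-2, which encodes miR-7, a microRNA of brain and endocrine cells, had 7 hypermethylated sites 4610 to 5362 bp upstream (chromosome 7, 86027801 to 86028553). Their differences in the authors' deposited table ran from 33.5 to 65.9 pp with a mean of 47.7. The start of a microRNA gene in such annotation is that of its hairpin, and the start of the longer primary transcript may lie elsewhere.

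The other microRNA genes had 1 or 2 sites each. Mir34a, a target of p53, had a single hypermethylated site 7699 bp away at 56.0 pp in the authors' deposited table. Mir129-1 and Mir129-2, 2 copies on chromosomes 6 and 2 of a microRNA gene active in brain, had listed means of 40.3 and 44.8 pp, over 2 sites and 1 site in the authors' deposited table. Mir125b-2, whose microRNA is abundant in haematopoietic stem cells, had 2 sites 2216 and 2220 bp away with a mean of 32.4 pp in that table. Mir1953 had 1 site at 38.0 pp, and the only microRNA gene with a hypomethylated site was Mir3475 on X (-40.6 pp in the authors' deposited table, 15272 bp away). Thus 7 of the 8 microRNA genes had hypermethylated sites alone, beside 92.1% of the 478 nearest genes.

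The largest differences in clusters were near genes of several kinds. Gcm2, a transcription factor gene required for parathyroid development, had 7 hypermethylated sites 4141 to 4438 bp upstream on chromosome 13 (41209498 to 41209795, both strands). In the authors' deposited table they had 88.2, 68.7, 71.4, 55.4, 52.9, 54.3 and 68.6 pp, a mean of 65.6, and all 7 exceeded the median of the 720 hypermethylated sites. 6330527O06Rik, now named Lamp5, encodes a lysosome-associated membrane protein of neurons. It had 8 sites on 1 strand of chromosome 2 (135877081 to 135877302), 6361 to 6582 bp upstream, with 62.3, 56.4, 65.0, 74.8, 88.2, 67.5, 46.8 and 52.0 pp in the authors' deposited table. The 7 sites upstream of Gramd2, a GRAM domain gene, lay within 59539722 to 59539764 on 1 strand of chromosome 9. They ranged from 54.3 to 71.8 pp in the authors' deposited table, with 2 pairs of equal values (68.5 and 54.3 pp).

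Among genes of synapse and adhesion, Fat2, an atypical cadherin gene, had 3 sites 2140 to 2402 bp upstream with 69.6, 54.5 and 67.6 pp in the authors' deposited table. Jph3, a junctophilin gene of neurons, had 3 sites 1161 to 1215 bp upstream with 55.6, 71.8 and 63.9 pp in that table. Cacng4 encodes an auxiliary subunit of AMPA receptors that is named as a calcium channel subunit. Its 5 sites on chromosome 11 (107660851 to 107660883) had 46.4, 68.5, 56.7, 70.3 and 65.9 pp in the authors' deposited table. These 3 clusters and those of Gcm2, 6330527O06Rik and Gramd2 had the largest means among regions of at least 3 sites near genes, from 61.5 to 65.6 pp.

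Other genes with many sites had more moderate differences. Dkk4, a secreted antagonist of Wnt signalling, had 8 hypermethylated sites 6597 to 6737 bp upstream on chromosome 8, from 38.2 to 65.0 pp in the authors' deposited table (mean 46.8). Ctnna3, the gene of alpha-T-catenin of cardiac cell junctions, had 7 sites 13542 to 13866 bp upstream with a mean of 40.1 pp in that table. Ulk4, a gene of the Unc-51-like kinase family, had 6 sites with a mean of 49.9 pp, and Adcy5, an adenylyl cyclase gene, had 6 with a mean of 47.1 pp in the authors' deposited table. Mnt encodes a repressor that pairs with Max and opposes Myc. It had 6 sites 1551 to 1704 bp upstream, from 36.1 to 58.4 pp in the authors' deposited table. The 7 sites of the non-coding gene 1700092K14Rik lay just inside the limit, 19227 to 19634 bp downstream, from 33.0 to 87.5 pp in that table.

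**Figure D2:**
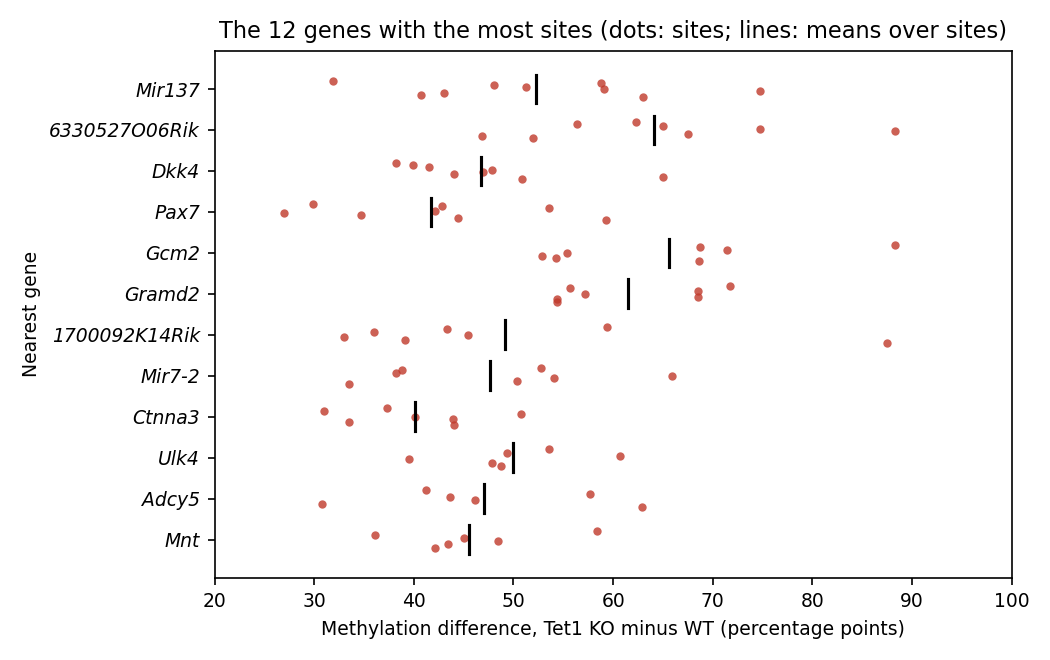
Methylation difference (x axis, pp, Tet1 KO minus WT) of each hypermethylated site (dots) near the 12 genes with the most such sites, with the mean over sites as a line. Gcm2, 6330527O06Rik and Gramd2 have means above 60 pp, and the other 9 lie between 40.1 and 52.3.

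The promoters of 3 of the named genes are shown, picked as examples of low, above-median and still higher CpG content. Each sequence is a RefSeq promoter of GRCm38.p6, from 250 bases before to 50 after the start, 5′ to 3′ on the strand of the gene, with every CG in capitals. By the files' own annotation all 758 sites lie 799 bp or more from the start, outside these stretches.
Gcm2 (minus strand): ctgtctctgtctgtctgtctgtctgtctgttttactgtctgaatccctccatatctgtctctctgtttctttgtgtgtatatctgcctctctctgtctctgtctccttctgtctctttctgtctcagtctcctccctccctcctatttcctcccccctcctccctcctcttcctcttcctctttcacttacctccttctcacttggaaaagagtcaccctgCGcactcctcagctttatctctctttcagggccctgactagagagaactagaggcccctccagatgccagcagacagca
Pax7 (minus strand): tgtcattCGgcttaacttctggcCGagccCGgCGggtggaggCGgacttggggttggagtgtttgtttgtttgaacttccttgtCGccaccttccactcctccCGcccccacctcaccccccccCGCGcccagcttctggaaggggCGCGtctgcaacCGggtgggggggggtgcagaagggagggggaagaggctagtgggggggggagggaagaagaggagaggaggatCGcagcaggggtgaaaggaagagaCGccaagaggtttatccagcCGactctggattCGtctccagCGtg
Adcy5 (plus strand): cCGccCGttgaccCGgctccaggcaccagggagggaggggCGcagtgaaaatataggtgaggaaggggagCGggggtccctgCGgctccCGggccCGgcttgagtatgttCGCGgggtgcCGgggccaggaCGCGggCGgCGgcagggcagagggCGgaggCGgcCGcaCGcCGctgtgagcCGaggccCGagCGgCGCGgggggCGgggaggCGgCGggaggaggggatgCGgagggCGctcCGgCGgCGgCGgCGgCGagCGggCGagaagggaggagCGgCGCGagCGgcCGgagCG
The Gcm2 promoter holds 1 CG, and 14.1% of the 32851 promoters in the table hold as few. Pax7 has 17, a number reached by 31.4% of them, and Adcy5 has 44, reached by 2.25%. The median over all promoters in the table was 7. The motif searched was CG, which reads the same on both strands, and 94.6% of all promoters in the table hold at least 1. Promoters were found for 363 of the 478 nearest genes (75.9%), under the 80% needed, so a comparison of CpG content over all nearest genes is void.

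Developmental transcription factors were the list with the most members. These factors lay down body pattern and cell fate and are mostly silent in blood cells. Of 198 genes in the list, 89 were nearest to a listed site anywhere and 33 of these (37.1%) to an intergenic site within 20 kb, beside 478 of all 3344 nearest genes (14.3%). Of the 33, 32 had hypermethylated sites alone, beside 440 of the 478 nearest genes (92.1%) and 87.0% of the nearest genes of all listed sites. The median of their gene means was 37.3 pp, beside 38.2 pp over the 478 genes. The lists were described by counts and were not tested, and they do not hold every gene of their kind.

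Pax7, which marks and maintains the stem cells of muscle, had 8 upstream sites on chromosome 4: 1 site 3955 bp away at 29.9 pp, and 7 sites 18409 to 19537 bp away at 42.9, 53.6, 42.1, 27.0, 34.7, 44.4 and 59.3 pp in the authors' deposited table. Pitx1, a homeobox gene of the hindlimb, had 5 sites in 3 places. They were 2 sites downstream at 28.6 pp each and 3 upstream at 36.8, 48.6 and 35.5 pp in the authors' deposited table. Foxa2, a pioneer factor of endoderm, had 4 sites within 17322 to 17363 bp downstream, at 44.2, 47.5, 42.1 and 46.2 pp in that table. Members with the largest means were Nkx6-1 (60.1 pp over 2 sites), Irx4 (53.0 over 2) and Nkx6-2 (51.6 over 3) in the authors' deposited table, homeobox genes named after their values were seen. The 1 member with a hypomethylated site was Hand2, a factor of heart and limb, with -28.4 pp 5341 bp away in the authors' deposited table.

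**Figure D3:**
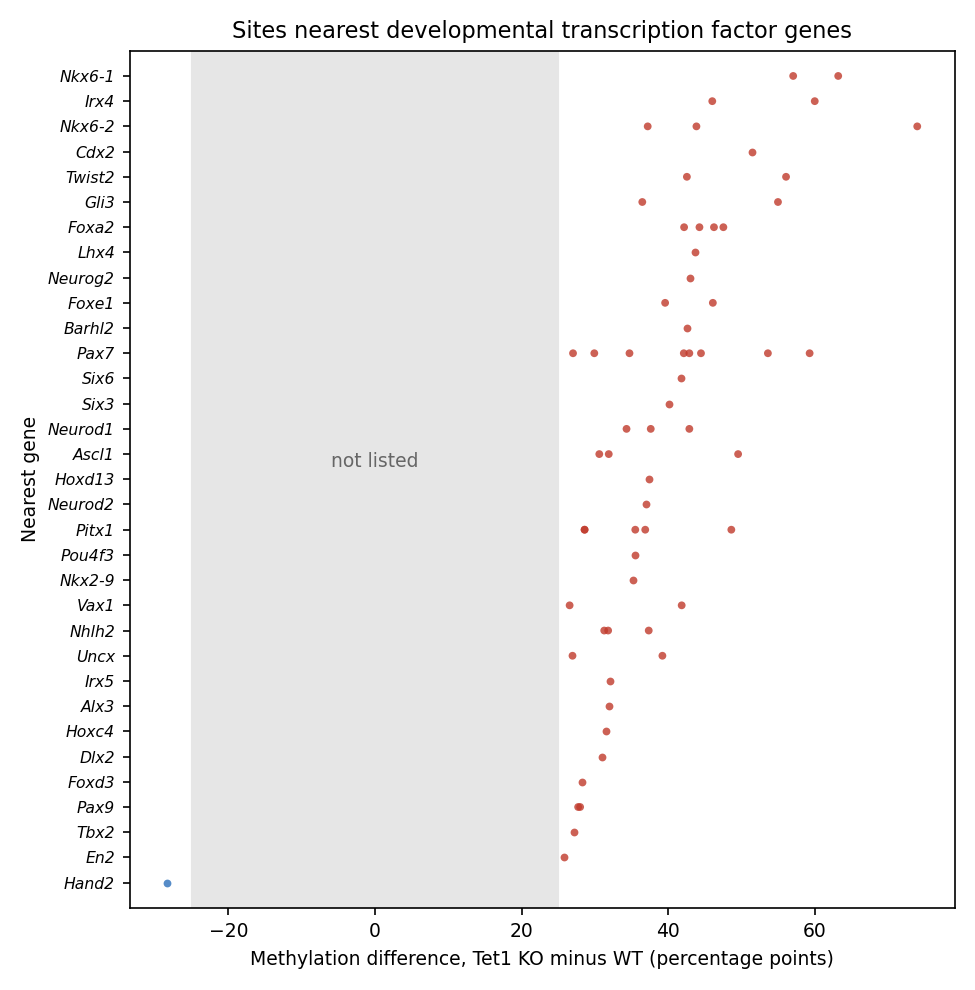
Methylation difference (x axis, pp, Tet1 KO minus WT) of the 63 intergenic sites within 20 kb of the 33 developmental transcription factor genes, 1 row a gene, in order of the mean. Hand2, at the bottom, is the 1 gene with a hypomethylated site, and the grey band marks differences that the deposited lists leave out.

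Of 112 genes of the Wnt, Notch, TGF-β and Hedgehog pathways, 40 were listed and 7 of these (17.5%, beside 14.3% over all nearest genes) had an intergenic site near the start. The 7 were Wnt1, Wnt5a, Wnt7b, Wnt11, Sfrp2, Hey2 and Smad7. Of these, 6 had hypermethylated sites alone (85.7%, beside 92.1% of the 478 nearest genes). Dkk4, described above, and Gli3, counted among the developmental factors, were not in this list. The shares are thus of the list and not of the whole pathways. Wnt5a, a ligand of non-canonical Wnt signalling, had 2 sites 1288 and 1312 bp upstream at 70.0 and 60.7 pp in the authors' deposited table. Wnt7b, a Wnt ligand, had 2 sites 18237 and 18262 bp upstream at 27.7 and 43.9 pp in that table. Smad7, an inhibitor of TGF-β signalling, had 1 hypomethylated site 4415 bp upstream at -38.2 pp, and 2 hypermethylated sites elsewhere in the authors' deposited tables.

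Ion channel genes were listed for 64 of 165 members found, and 9 of the 64 (14.1%, beside 14.3% over all nearest genes) had a near intergenic site. Of the 9, 8 had hypermethylated sites alone (88.9%, beside 92.1% of the 478 genes). Beside Cacng4, Cacna1g, the gene of a T-type calcium channel, had 3 sites 1402 to 1701 bp upstream at 36.4, 37.9 and 44.5 pp in the authors' deposited table. Cacnb3, which encodes a calcium channel beta subunit, had 3 sites 1045 to 3113 bp upstream at 33.7, 27.4 and 59.2 pp in that table. Kcng2, a potassium channel subunit gene on chromosome 18, had the 1 hypomethylated site of the list, at -51.2 pp in the authors' deposited table. Of 112 axon guidance and adhesion genes, 40 were listed and 9 of these (22.5%, beside 14.3%) had a near intergenic site, 8 of the 9 with hypermethylated sites alone (88.9%, beside 92.1%). Examples were the semaphorin gene Sema6a (2 sites, mean 52.0 pp), the cadherin gene Cdh22 (2 sites, mean 37.8) and the netrin gene Ntn1 (1 site, 50.8) in the authors' deposited table. The other member was the integrin gene Itga3, with -38.2 pp 1659 bp upstream.

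The blood cell lists had 0 to 3 genes each with a near intergenic site, numbers too small to set apart from the 14.3% over all nearest genes. Among 46 erythroid and megakaryocyte genes 12 were listed and 3 of these (25.0%) had a near intergenic site. All 3 had hypermethylated sites alone, as had 92.1% of the 478 nearest genes. This count is of the list alone: Abcb10 (-35.5 pp) and Fech (32.8 pp), outside it, also had near intergenic sites in the authors' deposited tables. Spnb1 (now Sptb), the beta spectrin of the red cell membrane, had 65.6 pp 1001 bp upstream in the authors' deposited table. Zfpm1, the Gata1 cofactor FOG1, had 48.3 pp 12227 bp upstream, and the carbonic anhydrase gene Car2 had 43.5 pp 9666 bp upstream in that table. The list of T cells and natural killer cells held 47 genes, of which 8 were listed and 2 (25.0%) had a near site: Nfil3, required for natural killer cells, at 38.3 pp, and Runx3, a regulator of cytotoxic T cells, at -38.5 pp 10370 bp upstream in the authors' deposited tables. In the stem cell list 8 of 48 genes were listed and 1 (12.5%) had near sites, the cell cycle inhibitor gene Cdkn1c, with 41.5 pp 15929 bp downstream and 43.7 pp 3159 bp upstream. The myeloid, B lymphoid and blood cancer lists had 8, 9 and 15 listed genes and 0 with a near intergenic site. These counts cover only the genes chosen for each list. Mn1 (64.7 pp), Zbtb16 (31.8 pp) and Tcl1 (-41.7 pp) had near intergenic sites in the authors' deposited tables and were in none of the lists.

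In the cytokine and chromatin lists the shares with a near site were 10.5% and 9.09% of listed genes, beside 14.3% over all nearest genes. Of 131 cytokine, chemokine and receptor genes, 19 were listed and 2 had a near intergenic site. Both had hypermethylated sites alone, as had 92.1% of the 478 nearest genes. Il5, the eosinophil growth factor, had 34.6 pp 14519 bp downstream, and Cxcr7 (now Ackr3), an atypical chemokine receptor, had 29.1 pp 1040 bp upstream in the authors' deposited table. Of 70 genes of DNA methylation and chromatin, 11 were listed and 1 had a near intergenic site, the Polycomb gene Cbx8, at 31.4 pp 11352 bp upstream in the authors' deposited table. Both shares depend on which genes were put in the lists. Ccr4 (33.0 pp), Chd8 (41.2 pp) and Prmt5 (54.7 pp) had near intergenic sites in that table and were in neither list.

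The 38 hypomethylated sites had 38 different nearest genes, 35 of them without a near hypermethylated site. The 8 with the largest losses are named, chosen by these values. The lowest value was at Zfp704, a zinc finger gene on chromosome 3, with -81.1 pp 14115 bp upstream in the authors' deposited table. After Kcng2, the next were the non-coding gene Gm14718 on X (-50.8 pp), 9130209A04Rik (-50.2), and Snx2, a sorting nexin of the endosome (-50.0), in that table. Actl7b, an actin-like gene of testis, had -47.8 pp, 2410137F16Rik (now Srrm4os) had -47.5, and Slc9a10 (now Slc9c1), a sperm ion exchanger gene, had -47.4 in the authors' deposited table. Both directions occurred near 3 genes. The pseudogene Gm6524 had -35.3 and 32.1 pp at sites 7504 and 7591 bp upstream in the authors' deposited tables. Zcchc14, a zinc finger gene, had -33.3, 49.4 and 38.3 pp 16498, 16970 and 17029 bp upstream, and Zfp503, a factor of the developing striatum, had -31.6 pp 1223 bp and 49.3 and 62.0 pp 4758 and 4772 bp upstream in those tables. At Gm6524 and Zcchc14 the sites of opposite direction lay less than 1000 bp apart.

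Some of the nearest genes had listed sites elsewhere too. Of the 443 genes with a near hypermethylated site, 160 had another listed site outside the class, 151 of them a hypermethylated and 15 a hypomethylated one. Promoter sites were listed for 17 of the 478 genes, and all 26 were hypermethylated, beside 97.0% of all 725 listed promoter sites. No share over all 3344 nearest genes was set beside the 160 and the 17 genes, so neither number can be called high or low. Twist2, a basic helix-loop-helix factor of mesoderm, had 2 intergenic sites 1006 and 1008 bp away with a mean of 49.3 pp and 1 promoter site at 45.3 pp in the authors' deposited table. Aatk, a kinase gene of neurons, had 1 intergenic site at 40.5 and 3 promoter sites with a mean of 54.8 pp in that table. At Grip2, a scaffold of glutamate receptors, the values were 70.6 pp at an intergenic site 19736 bp away and 36.1 pp in the promoter. The kinase gene Prkcz had 41.9 pp at an intergenic site and a mean of 61.6 pp over 2 promoter sites in the authors' deposited table. Among these 4 genes the promoter was listed with a larger or a smaller difference than the intergenic site. Aatk, Grip2, Prkcz and Twist2 were chosen after their values were seen.

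Gains outnumbered losses at every distance. Hypermethylated sites were 96.3% of 108 listed under 2 kb, 95.9% of 148 from 2 to 5 kb, 96.7% of 183 from 5 to 10 kb, 93.5% of 168 from 10 to 15 kb and 92.7% of 151 from 15 to 20 kb, and the exact 95% intervals of all 5 overlapped (lowest bound 87.3%, highest 99.0%). These intervals count every site as independent, which clustered sites are not, so they can be too narrow. The number of listed sites per kb was 49.3 from 2 to 5 kb and 30.2 from 15 to 20 kb. How many cytosines were read at each distance was not analysed here. The median hypermethylated difference in the authors' deposited table was 42.5 pp under 2 kb, 41.4 from 2 to 5 kb, 42.1 from 5 to 10 kb, 38.1 from 10 to 15 kb and 42.5 from 15 to 20 kb.

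**Figure D4:**
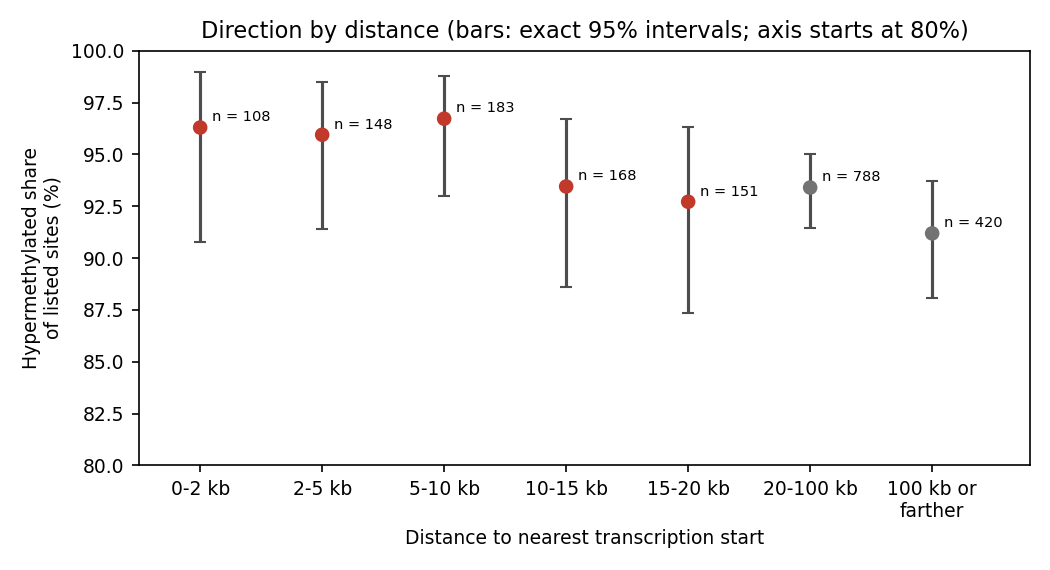
Hypermethylated share of listed intergenic sites outside islands and repeats (y axis, percent, starting at 80) by distance to the nearest transcription start, within 20 kb (red) and beyond (grey). Points are shares over the sites counted beside them and bars exact 95% intervals, which overlap between neighbouring bins. The intervals count clustered sites as independent and can be too narrow.

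Sites near starts were then set against intergenic sites of the same kind farther away, 788 at 20 to 100 kb and 420 at 100 kb or farther, over joined regions. Regions near starts were hypermethylated in 473 of 511 (92.6%, exact interval 89.9 to 94.7%), against 479 of 529 (90.5%, 87.7 to 92.9%) at 20 to 100 kb and 248 of 283 (87.6%, 83.2 to 91.2%) at 100 kb or farther, beside 89.4% of regions over all listed sites and 90.7% over the 3 distance classes together. The difference from 20 to 100 kb was 2.02 pp (odds ratio 1.30, 95% interval 0.818 to 2.08, Fisher's exact test, two-sided, adjusted p = 0.774). That from 100 kb or farther was 4.93 pp (odds ratio 1.76, 1.05 to 2.93), with an unadjusted p of 0.0286 that did not pass after adjustment over the 7 comparisons made (Fisher's exact test, adjusted p = 0.200). With a limit of 10 kb in place of 20 kb the difference was 6.85 pp, with an adjusted p of 0.0347 by Fisher's exact test, and over all 9 alternatives the adjusted p ran from 0.0347 to 0.667. A site already fully methylated in WT cells cannot gain, and an unmethylated one cannot lose; WT levels were not used here.

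The size of the listed gains near starts and farther away was compared next, and no difference passed. Only gains of at least 25 pp are listed, so smaller gains are outside this comparison. Hypermethylated regions near starts had a median difference of 39.6 pp (n = 473), against 39.4 at 20 to 100 kb (n = 479) and 38.5 at 100 kb or farther (n = 248). The gaps of 0.23 and 1.09 pp did not pass (permutation test of medians, two-sided, 100000 permutations, adjusted p = 0.862 and 0.774). Over regions of at least 2 sites alone, the median was 43.95 pp within 20 kb (n = 133), against 39.7 pp at 100 kb or farther (n = 68), a gap of 4.28 pp that did not pass after adjustment (permutation test, p = 0.0399, adjusted p = 0.160), and over all 9 alternatives its adjusted p ran from 0.160 to 0.944. Regions with 2 or more sites were 28.1% of hypermethylated regions near starts, against 28.8% and 27.4% in the farther classes (odds ratios 0.967, 0.722 to 1.29, and 1.04, 0.725 to 1.49, Fisher's exact test, adjusted p = 0.862 for both). Near starts, hypermethylated regions had a median absolute difference of 39.6 pp and the 38 hypomethylated ones 37.2 pp, a gap of 2.46 pp that did not pass (permutation test, adjusted p = 0.774). A p-value over the threshold does not show that the classes are alike. Regions come from the same 6 samples, so these tests compare listed regions and say nothing of variation between mice.

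**Figure D5:**
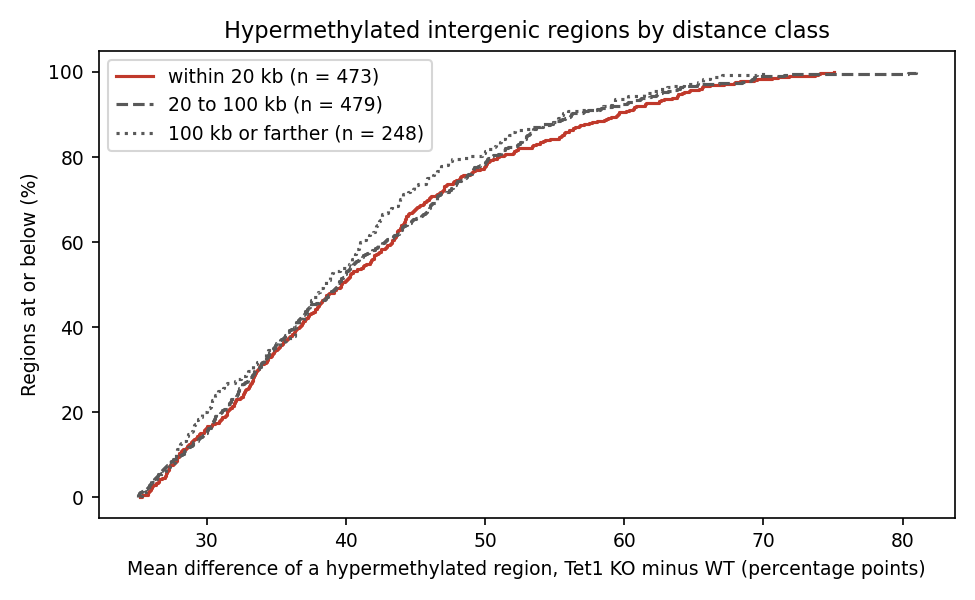
Cumulative share (y axis, percent) of hypermethylated intergenic regions by mean difference (x axis, pp, Tet1 KO minus WT), for regions within 20 kb of a start (red) and in the farther classes (grey). The curves cross and lie close together, with medians of 39.6, 39.4 and 38.5 pp from near to far.

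Most nearest genes were protein-coding in each distance class. Protein-coding genes were nearest to 88.1% of sites within 20 kb, against 83.6% at 20 to 100 kb and 81.0% at 100 kb or farther, and genes labelled miscRNA, which include microRNA genes, to 11.1%, 14.5% and 18.6%. These shares depend on how densely each kind of gene is annotated and were not tested.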

How the data were processed

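Genomic DNA of sorted LSK cells (3 Tet1 KO and 3 WT samples) was bisulfite-converted and sequenced. The submitters' processing notes name Bismark and mm9, with no role or version. For the caller, coverage minimum, q-value threshold and pooling of replicates, the sources used here give nothing. The authors' deposited tables hold another kind of value than counts or levels: 1 signed difference in pp per cytosine, of at least 25 in absolute size, and a distance in base pairs, per the file headers. Columns of per-sample values numbered 0, so depth and replicate spread are unknown.

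Sites of 1 class and direction less than 1000 bp apart were joined, and a region's value is the mean of its sites. Shares were compared with Fisher's exact test and medians with 100000 permutations, two-sided, Benjamini-Hochberg adjusted over 7 comparisons at 0.05 (Python 3.11.15, scipy 1.17.1, numpy 2.4.6). The tests were checked on simulated data. The alternatives tried were a minimum of 40 pp, other joining distances, autosomes, 1 strand and a 10 kb limit. Islands and repeats kept, sites as units and clusters alone (regions of at least 2 sites) were tried too. For sites as units and for clusters alone fewer than 7 comparisons could be made, and the adjustment was over those made.

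The members, the 12 gene lists and the tests were chosen with earlier results of these data known. Genes were named by rule: the 12 with most hypermethylated sites, 8 with a hypomethylated site (1 each, so the 8 largest losses, picked by value), the 6 largest regions of at least 3 sites, up to 3 per list, the 3 largest and 3 lowest sites and genes with both directions. Entrez identifiers of all 478 nearest genes were found in RefSeq (GRCm38.p6), used for names and sequences alone.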

Additional observations from a re-analysis of the deposited data

How the results depend on the processing

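No paired analysis was possible because the deposited tables hold no values per sample, and for the same reason no replicate could be left out. Under the 9 alternatives, counted over the 7 comparisons, 51 of 58 values kept their direction and their side of the threshold. The 1 value that passed was the hypermethylated share within 10 kb against 100 kb or farther (6.85 pp, Fisher's exact test, adjusted p = 0.0347). Values that changed sign did not pass before or after: the median gap to 20 to 100 kb was -0.23 pp with a minimum of 40, -1.44 with forward-strand sites and -0.032 with regions of at least 2 sites. The share of regions with 2 or more sites differed by 0.29 pp from 20 to 100 kb when sites up to 5000 bp apart were joined, and by -2.15 (joining within 200 bp) and -3.85 (forward strand) pp from 100 kb or farther. The median gap to 100 kb or farther was 4.28 pp with regions of at least 2 sites. The cause was not tested. With regions of at least 2 sites alone no hypomethylated region was left near starts, so their medians could not be compared. Coverage per site was not used here, and it limits every value.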

Other observations

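Neighbouring sites on the same strand and less than 50 bp apart can be covered by the same read. Their listed differences were seldom equal, but unequal values do not show that such sites were measured on different reads. Of 178 such adjacent pairs of the same direction near starts, 4 (2.25%) had the same difference within 1e-06 pp, the median gap was 9.80 pp and the widest 35.5 pp in the authors' deposited tables.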
